A study of Mus musculus with 23 samples.

Results

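Microglia from the cortex and hippocampus of wild-type mice were compared between 12 and 3 months of age. The comparison rests on 8 of the 23 samples of the series, 4 at each age, chosen by their titles. Gene expression was measured on a mouse microarray that carries 22203 probe sets, each a group of probes read as 1 transcript. Results are given for the 18726 probe sets whose gene lies on 1 of the 19 autosomes, so that the sex of the animals bears less on them.

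All cells were sorted as CD45 and CD11b positive, a gate that takes microglia together with other myeloid cells of the brain. The wild-type samples came from C57BL6 mice, carried no transgene, and passed no further gate at either age. The other 15 samples came from 2 transgenic strains. APPswlnd mice make a mutant human amyloid precursor protein, and P301S (PS19) mice make mutant human tau from a prion protein promoter. Each strain has an ungated group at 3 months, of 3 samples for APP and 4 for TAU, which the labels place before pathology. Each also has a group of 4 samples taken with pathology and sorted for Clec7a, a lectin receptor that marks activated microglia. That group is 12 months old for APP. For TAU the titles say 12 months while the age field says 9 months, and 9 is used here. Age, pathology and the Clec7a gate therefore differ together in the transgenic strains and cannot be told apart there. The sex of the animals may differ there too. Uty, a gene of the Y chromosome, had a median of 5.22 in young APP and 8.09 in gated APP, and 4.9 and 6.65 in TAU. The titles call the samples biological replicates without saying whether each was 1 animal. All p-values here reflect how far these particular samples vary, which may be technical.

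Microglia are the resident macrophages of the brain. In the healthy brain they hold a homeostatic program that includes the purinergic receptor P2ry12, the membrane protein Tmem119 and the fractalkine receptor Cx3cr1. Around amyloid and in other pathology a share of them lowers these genes and raises a disease-associated (DAM) program with Apoe, the lipid carrier, Cst7, a cathepsin inhibitor, Axl, a receptor for dying cells, Itgax, an integrin, and Igf1, a growth factor. Ageing without pathology is known for milder shifts, among them in cytokine, interferon and lysosomal genes. The comparison asks how the microglia of wild-type mice change by 12 months, and which of those changes are also seen in the gated cells of the transgenic strains.

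All values are log2 levels from robust multi-array averaging, so a difference of 1 is a doubling. A gene was called where the adjusted p was under 0.05 in limma, a linear model fitted on all 23 samples, with Benjamini-Hochberg adjustment over all 22203 probe sets. "Rose" and "fell" are used for called genes only. Probe sets of 1467 odour, pheromone and taste receptor genes, which are not known as microglial genes, set a background level per group, the 95th percentile of their group means. It was 7.73 for wild type at 3 months and 8.11 at 12 months, and 7011 of the autosomal probe sets were above it at 1 age or both. Where the lower group is at background, the fold is a lower bound counted from that group's own background level. The background was higher at 12 months, and the folds of higher genes take no account of that.

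The sorted cells carried microglial genes at both ages. P2ry12 read 18.21 ± 0.15 (SD, n = 4) at 3 months and 18.30 ± 0.09 (SD, n = 4) at 12 months. Csf1r, the receptor that microglia need to survive, read 18.35 and 18.26, and Siglech, a microglial lectin, 17.37 and 17.31. Replicates 2 and 4 of the 12-month group stood apart. The SD over all probe sets of an array was 2.40 and 2.41 in these 2, against 2.46 to 2.60 in the other 6 wild-type samples. Their chemosensory receptor probe sets had a median of 6.32 each, against 5.63 to 6.05. After centring on the mean of the 8 wild-type samples, these 2 correlated with each other at 0.60 across autosomal probe sets and with replicate 3 at -0.63 and -0.62. Values without them are given beside results that they move by over 1.5 times. The Y-linked gene Uty read 7.25 to 9.50 in all 8 wild-type samples and 4.59 to 5.49 in the 3 young APP samples. In young TAU it ranged from 4.29 to 8.58, in gated APP from 4.86 to 9.11 and in gated TAU from 5.14 to 8.38. Kdm5d, also Y-linked, read 6.83 to 8.69 in wild type and 3.89 to 4.48 in young APP, while Eif2s3y read 4.04 to 5.11 in wild type and 3.90 to 4.15 in young APP, under background in both.

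At 12 months 5 autosomal probe sets of the 18726 were called higher (0.0267%) and none lower. The genes were Ildr2, Ica1, Lsp1, Elf3 and Fmo1. Without an adjustment, 707 probe sets were higher at a p under 0.05 (3.78%) and 828 lower (4.42%), again by limma, and the smallest adjusted p among lower probe sets was 0.172. At a p under 0.01, 194 were higher (1.04%) and 169 lower (0.902%). The 4 samples of one age lay wholly above the 4 of the other in 357 probe sets that were higher (1.91%) and in 407 that were lower (2.17%). The median standard error of a difference was 0.22, and the median difference over all autosomal probe sets was 0. The count of calls depended on single samples. It was 0 without replicate 2 or without replicate 3 of the 3-month group, 1 without replicate 1, and 4 without replicate 4. It was 3 without replicate 1 or 2 of the 12-month group, 2 without replicate 4, and 46 without replicate 3. Without both replicates 2 and 4 at 12 months, 1 gene stayed called, Ildr2.

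Ildr2, an immunoglobulin-like membrane receptor, rose. At 3 months the samples read 6.76, 6.62, 7.03 and 7.03, and at 12 months 8.35, 7.87, 8.94 and 8.10. All 4 older samples lay above all 4 younger ones, and the younger samples lay under the 3-month background level. The older mean of 8.315 was just above the 12-month background of 8.106, and the samples at 7.87 and 8.10 lay under it. The difference was 1.46 ± 0.22 (SE), with an adjusted p of 0.0113, at least 1.5-fold when counted from the 3-month background. Without replicates 2 and 4 it was 1.79, with an adjusted p of 0.0167. Over 18 alternatives the adjusted p of Ildr2 ran from 0.00574 to 0.191, and 13 of them called it.

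Ica1, a protein of the Golgi and of secretory vesicles that is an autoantigen in type 1 diabetes, rose. It read 5.92, 6.24, 6.25 and 6.92 at 3 months and 8.52, 8.62, 8.21 and 7.99 at 12 months. The groups did not overlap. The 12-month mean of 8.34 was just above the 12-month background of 8.11. The difference was 2.0 ± 0.29 (SE), with an adjusted p of 0.0113. Counted from the 3-month background of 7.73 it is at least 1.52-fold, which takes no account of the higher 12-month background. It was called in 15 of 18 alternatives, with an adjusted p from 0.00407 to 0.0914, the highest without replicates 2 and 4.

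Lsp1, an actin-binding protein of leukocytes, rose, and was the called gene with both groups above background. Its samples read 9.95, 10.14, 10.30 and 11.12 at 3 months and 11.70, 11.19, 12.16 and 11.61 at 12 months. The groups did not overlap, though the highest young sample was close to the lowest old one. The difference was 1.29 ± 0.23 (SE), or 2.44-fold, with an adjusted p of 0.0357. Without replicates 2 and 4 it was 1.55, with an adjusted p of 0.0854, in a range of 0.00432 to 0.535 over 18 alternatives.

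Elf3, an epithelial transcription factor, and Fmo1, a flavin monooxygenase, were at background at both ages, and no fold is given for them. Elf3 read 4.14 to 4.47 at 3 months and 4.95 to 5.59 at 12 months, with an adjusted p of 0.0357. Fmo1 read 6.70 to 7.31 and then 7.76 to 8.21, with an adjusted p of 0.0356. The chemosensory background also read higher at 12 months, at 8.11 against 7.73. Its part in these 2 differences, and in those of Ildr2 and Ica1, was not tested.

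The windows around the start sites of Ildr2 and Ica1 are shown because these genes had the smallest adjusted p in wild type. RefSeq windows of assembly GRCm38.p6 reach from 250 bases before a start to 50 after it. A window was held for 3 of the 5 called genes, and 2 are printed, Ildr2 at chr1:166253889-166254188 on the plus strand and the first of 2 windows of Ica1 at chr6:8778435-8778734 on the minus strand. Capitals mark matches to GAGGAA, the core of the site of the myeloid factor PU.1, and to TGANTCA, the site of AP-1. They also mark CACGTG, a form of the E-box, and other forms were not searched. GAGGAA was searched on both strands, and the other 2 read the same on both. No matches overlapped.
Ildr2: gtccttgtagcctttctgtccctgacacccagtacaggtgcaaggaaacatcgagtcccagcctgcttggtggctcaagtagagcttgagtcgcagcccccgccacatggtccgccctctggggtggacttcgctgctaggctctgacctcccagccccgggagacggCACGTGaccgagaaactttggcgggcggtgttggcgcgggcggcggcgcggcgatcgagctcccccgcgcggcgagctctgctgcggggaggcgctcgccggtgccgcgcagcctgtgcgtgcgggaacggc
Ica1: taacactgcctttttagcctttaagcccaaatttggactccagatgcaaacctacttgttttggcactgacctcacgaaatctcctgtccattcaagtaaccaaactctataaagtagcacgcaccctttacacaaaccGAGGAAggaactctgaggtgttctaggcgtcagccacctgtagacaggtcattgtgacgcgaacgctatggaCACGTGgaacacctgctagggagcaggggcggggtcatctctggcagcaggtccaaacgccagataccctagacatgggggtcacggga
CACGTG occurs once in each of the 2 printed windows, and GAGGAA once in that of Ica1. The window of Elf3, held but not printed, had no match to any of the 3 sequences. The other window of Ica1 was not searched. Over the windows of 25748 autosomal genes, 7.23% held CACGTG, 28.2% held GAGGAA and 7.99% held TGANTCA. A match is a run of letters and not a measured site.

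**Figure D1:**
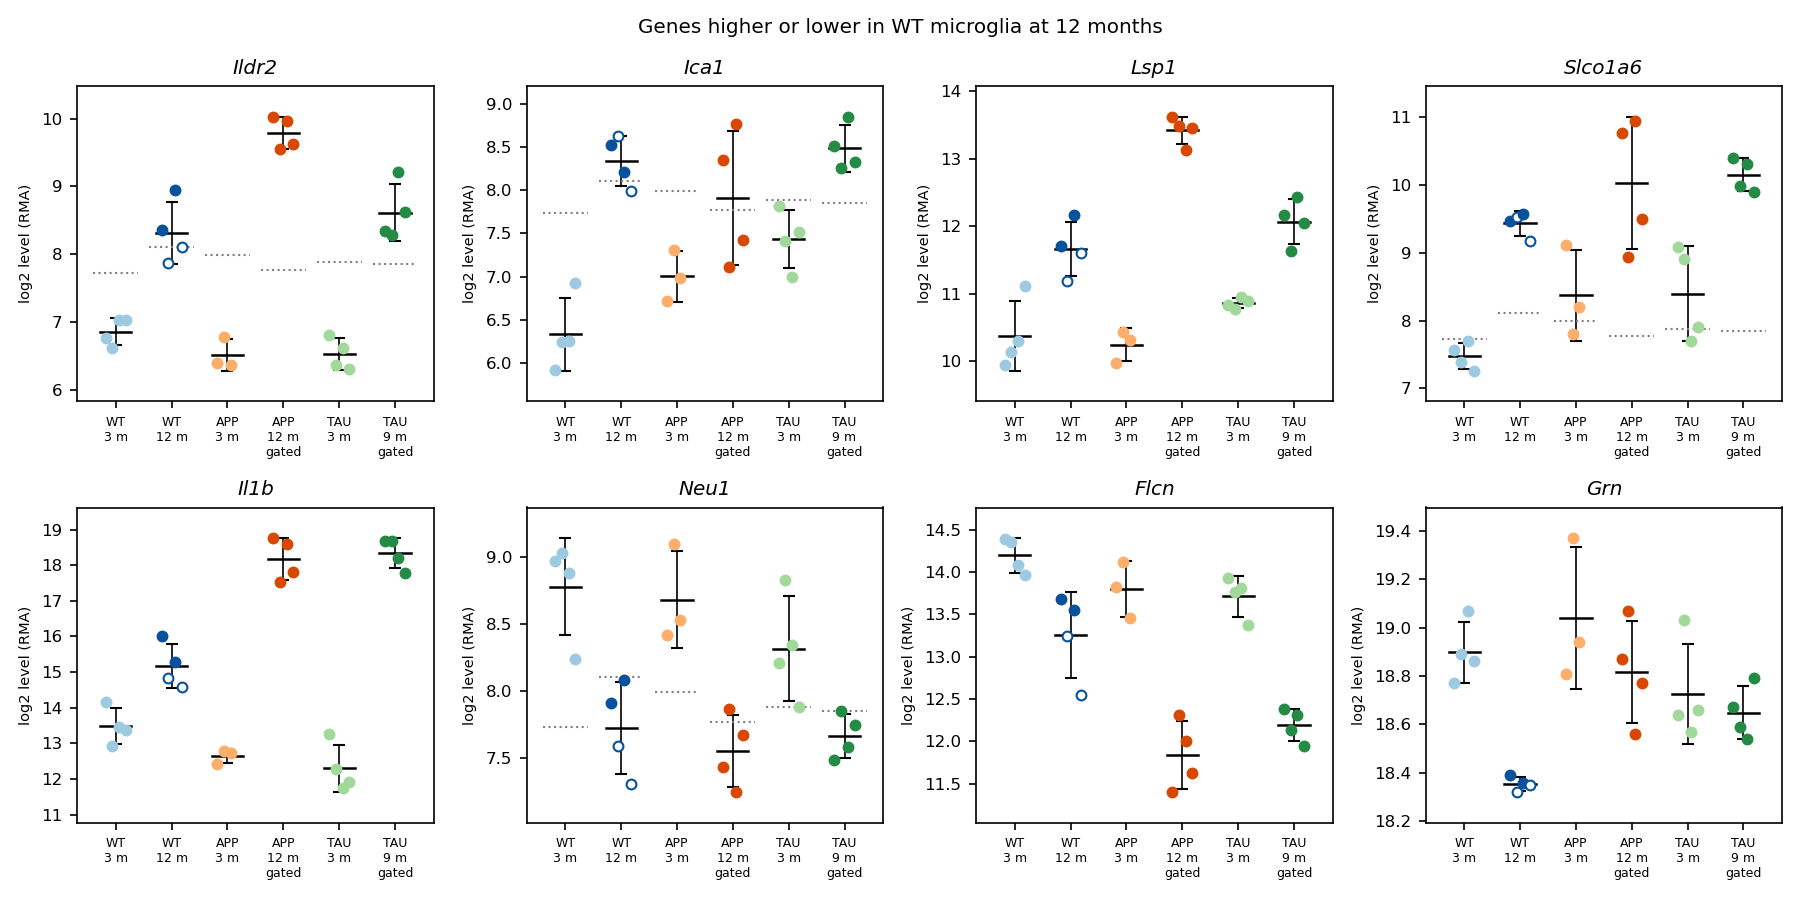
Log2 level of 8 genes (vertical axis, scale differing by panel) in the 6 groups (horizontal axis). Points are samples, open points are replicates 2 and 4 of wild type at 12 months, bars are the mean and SD, and dotted lines the group's background level where it lies in range. Ildr2, Ica1, Lsp1, Slco1a6 and Il1b read higher in every older wild-type sample than in any younger one, and Neu1, Flcn and Grn lower.

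Among genes above background that were not called, the largest differences upward at a p under 0.01 with no overlap between the ages were in Slco1a6, Sel1l2, Il1b, 9030624G23Rik, Sp110, Mymk and Zcchc10, besides the called Ica1, Ildr2 and Lsp1. Slco1a6, an organic anion transporter, read 7.56, 7.39, 7.70 and 7.26 at 3 months and 9.46, 9.53, 9.57 and 9.17 at 12 months. All 4 older samples were higher, and the younger mean was under background. Its difference was 1.96 ± 0.37 (SE), at least 3.26-fold, and its adjusted p was 0.0660. Without replicates 2 and 4 the difference was 2.04.

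Il1b, the cytokine interleukin 1 beta, read 14.16, 12.93, 13.45 and 13.39 at 3 months and 16.00, 14.84, 15.27 and 14.58 at 12 months. All 4 older samples were higher, and the 2 lowest of them were replicates 4 and 2. The difference was 1.69 ± 0.35 (SE), 3.23-fold, with an adjusted p of 0.149. It was 2.15 without replicates 2 and 4, with an adjusted p of 0.155. Over 18 alternatives the adjusted p of Il1b ran from 0.0210 to 0.440, with 2 calls. Sel1l2 differed by 1.82 (adjusted p 0.194), Sp110, a nuclear body protein of the interferon response, by 1.30 (adjusted p 0.172), Zcchc10 by 1.25 and Mymk by 1.25 (adjusted p 0.338 for both). The 2 lower older samples of 9030624G23Rik, replicates 1 and 3, read 8.97 and 8.55, against 10.36 and 9.91 in replicates 2 and 4, and its difference of 1.36 was 0.68 without these.

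No gene fell. The lower genes with the largest differences at a p under 0.01, above background and with no overlap, were Slc4a2, Neu1, Ttll4, Hk2, Gtpbp2, Lrmp, Ndel1, Zfp687, Cspp1 and Cyth2, from -1.15 to -0.96. Neu1, the lysosomal sialidase, read 8.97, 9.03, 8.88 and 8.24 at 3 months and 7.91, 7.59, 8.08 and 7.30 at 12 months. The older samples lay below the younger, and their mean was under background. The difference was -1.06 ± 0.23 (SE), at least 1.60-fold lower, with an adjusted p of 0.172. It was -0.79 without replicates 2 and 4. Slc4a2, an anion exchanger, differed by -1.15 and, without the 2 samples, by -0.51. Hk2, hexokinase 2 of glycolysis, differed by -1.04 and -0.74. Adjusted p-values of the others lay between 0.338 and 0.458.

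Leaving out replicates 2 and 4 made the wild-type differences fewer. At a p under 0.05 there were then 326 higher and 284 lower probe sets, and at a p under 0.01 there were 66 and 38. All 194 probe sets that were higher at a p under 0.01 with all samples kept their sign, with the median difference 0.77 with all samples and 0.53 without the 2. Of them 37 stayed under 0.01 (19.1%). All 169 lower ones kept their sign too, with medians of -0.69 and -0.50, and 18 stayed under 0.01 (10.7%). The fit without these samples has 2 older arrays, and its median standard error was 0.27. Those arrays and the younger ones are also in the full fit, which picked the probe sets. Kept signs were therefore likely in advance and are no separate test.

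Above background, the 5 higher genes with the smallest larger p of the 2 fits were Ildr2, Ica1, Lsp1, Slco1a6 and Il1b. The 5 lower ones were Tas1r2, Odc1, Slc25a28, Dnajc11 and Oser1. Odc1, the first enzyme of polyamine synthesis, read 14.17, 14.05, 13.87 and 14.51 at 3 months and 12.84, 13.07, 13.51 and 13.55 at 12 months. It differed by -0.91 ± 0.23 (SE) with all samples, with an adjusted p of 0.338, and by -0.98 without the 2, with an adjusted p of 0.999. Slc25a28, a mitochondrial iron carrier, differed by -0.71 and -0.81, and Oser1, an oxidative stress responsive gene, by -0.65 and -0.73. Dnajc11, a mitochondrial chaperone, differed by -0.71 and -0.66. Tas1r2 belongs to the taste receptors that set the background, and read 8.12 and 7.64.

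**Figure D2:**
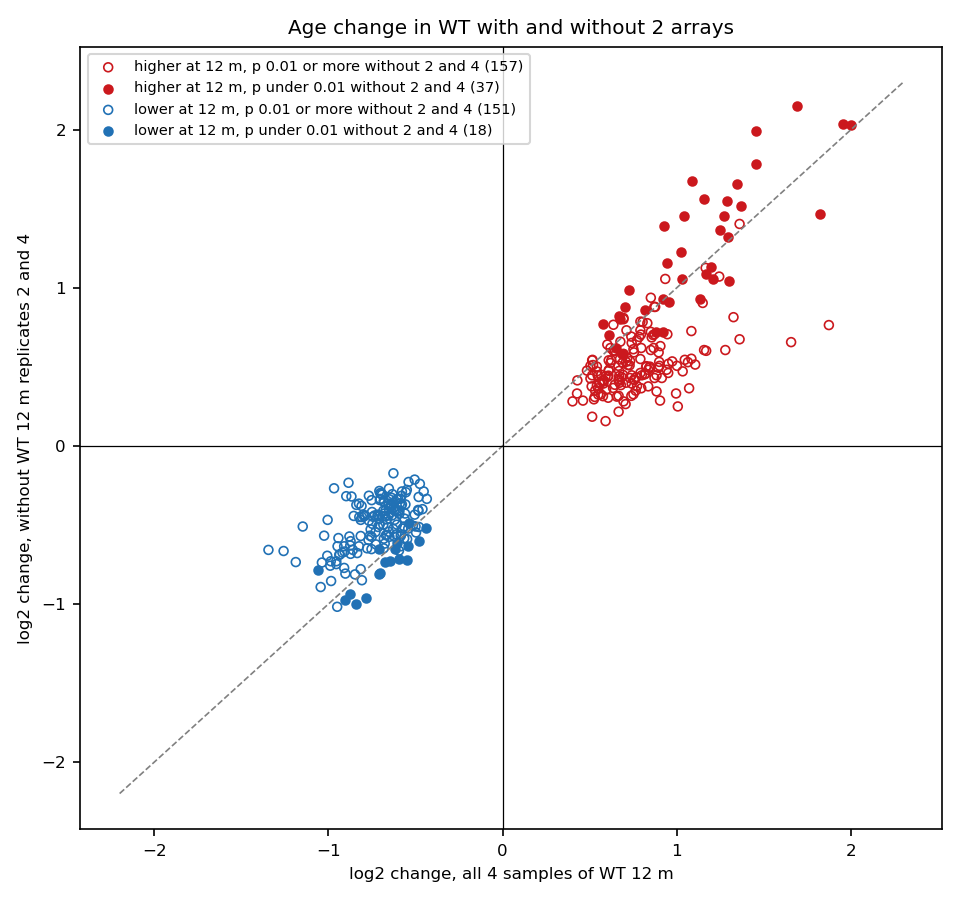
Log2 difference between 12 and 3 months in wild type for the 363 autosomal probe sets with a p under 0.01, with all samples (horizontal axis) and without replicates 2 and 4 of the 12-month group (vertical axis). Filled points keep a p under 0.01 and the dashed line marks equal values. All 363 keep their sign, while 37 of 194 higher and 18 of 169 lower ones keep a p under 0.01. The fits share arrays, so kept signs are no separate test.

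The gated transgenic cells were compared with the young samples of their own strain, so that this contrast shares no sample with the wild-type one. In APP 1163 autosomal probe sets were called higher (6.21%) and 1150 lower (6.14%). In TAU the counts were 1239 (6.62%) and 1309 (6.99%). Both strains called 777 the same way upward (4.15%) and 741 downward (3.96%). Over all 18726 probe sets, 1094 were called in both strains in the direction they had in wild type (5.84%), whatever their wild-type p.

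Among the 363 probe sets with a p under 0.01 in wild type, 68 were called in the same direction in both gated strains (18.7%), and 2 in the opposite direction in both. The 68 were 25 of the 194 higher ones (12.9%) and 43 of the 169 lower ones (25.4%). The same sign in both strains, called or not, was seen for 60.9% of the 363 and for 40.9% of all autosomal probe sets. A further 228 of the 363 were called in neither strain. Over all 18726 autosomal probe sets, 423 were called opposite to wild type in both strains and 15386 were called in neither. Among the 199 of the 363 above background, the 68 shrank to 61, of which 20 were from 61 higher and 41 from 138 lower probe sets. Of all 18726, 7011 were above background, and the share called the same way among those was not computed. The shares over all 18726 are therefore not a like measure for these counts. Across all autosomal probe sets the wild-type differences correlated at 0.20 with those of APP and at 0.17 with those of TAU, a description over probe sets that share arrays.

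The count of 68 moved with the older wild-type samples. It was 34 without replicate 2, 35 without replicate 4, 140 without replicate 3 and 24 without both 2 and 4. Without both, 104 probe sets had a p under 0.01 in wild type. The 24 were then 22 of 66 higher ones (33.3%) and 2 of 38 lower ones (5.26%), against 12.9% and 25.4% with all samples. Over all autosomal probe sets the share called the same way in both strains was 7.36% of higher and 5.24% of lower ones without the 2 samples, and 4.89% and 6.82% with all samples. Of the 37 higher and 18 lower probe sets under 0.01 in both fits, 11 and 1 were called the same way in both strains.

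Of the 68, 57 had a larger difference in both gated strains than in wild type. The 25 higher ones had a median difference of 0.73 in wild type, 1.10 in APP and 1.2 in TAU. The 43 lower ones had medians of -0.72, -1.09 and -1.17, and the wild-type median was -0.45 without replicates 2 and 4. A call in both gated strains was a condition for the 68, so these sizes cannot show whether shared changes are larger there. Over all 194 higher probe sets the medians were 0.77 in wild type, 0.21 in APP and 0.12 in TAU. Over all 169 lower ones they were -0.69, -0.53 and -0.41. These larger sets were in turn picked by their wild-type p. The test of the difference between the changes called 12 of the 68 for APP and 7 for TAU. Over all autosomal probe sets it called 729 for APP (3.89%) and 701 for TAU (3.74%). The TAU count was 463 without replicate 3 of young TAU, 1073 without replicate 3 of the older wild type, and 405 without its replicates 2 and 4. With the mean of 3 Y-linked genes as a covariate the counts were 397 and 438.

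**Figure D3:**
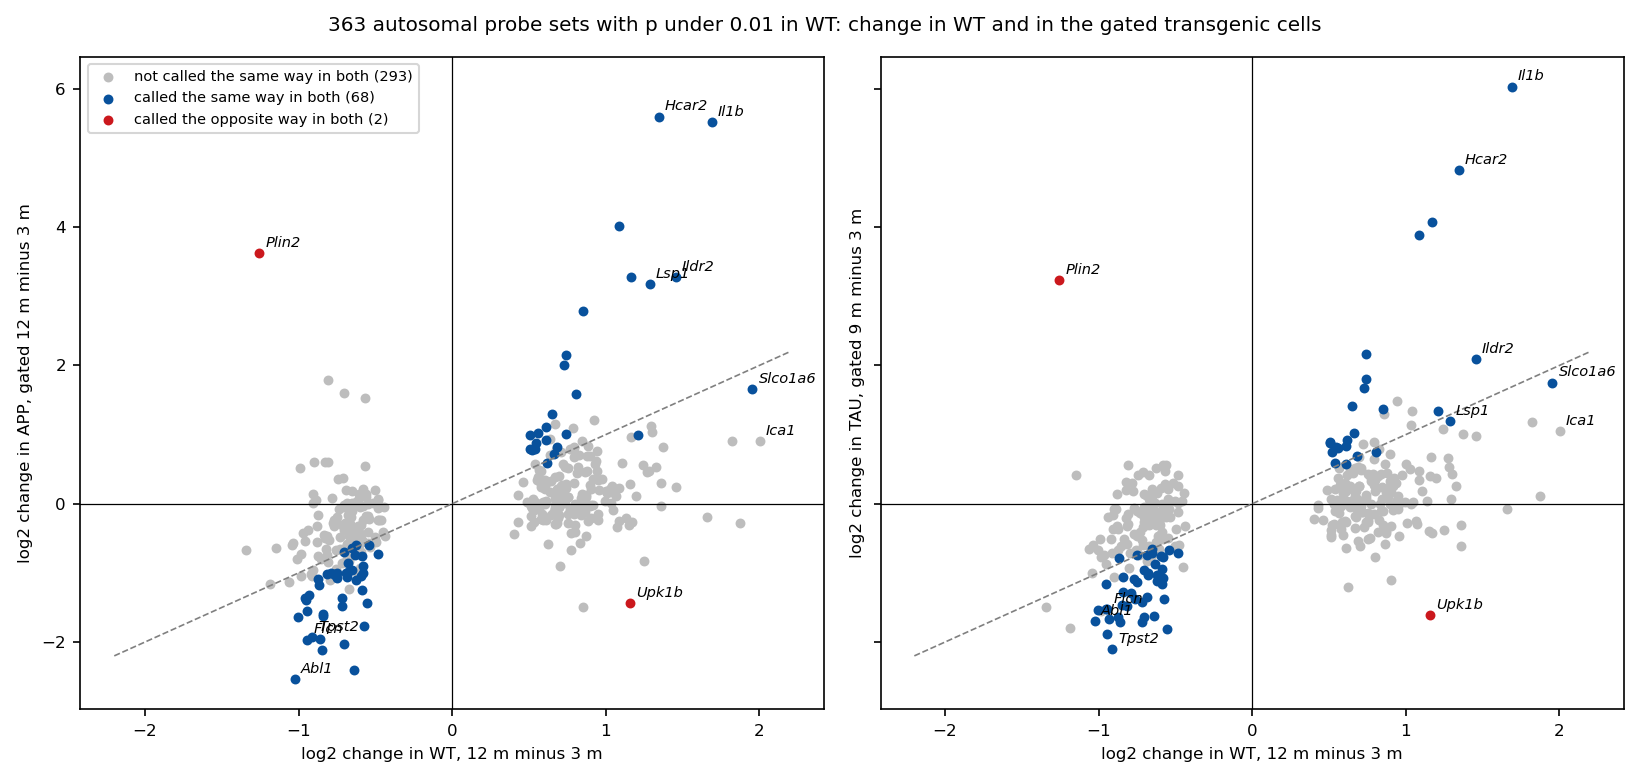
Log2 difference in wild type (horizontal axis, 12 minus 3 months) against the difference in gated APP and gated TAU over young samples of the same strain (vertical axes) for the 363 probe sets with a p under 0.01 in wild type. Blue points, 68, were called the same way in both strains, red points, 2, the opposite way in both, and the dashed line marks equal change; Il1b and Hcar2 lie far above it.

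Il1b, among the 68, is an example of a larger difference in the gated cells. Its samples read 12.30 ± 0.67 (SD, n = 4) in young TAU and 18.33 ± 0.42 (SD, n = 4) in gated TAU, and 12.64 ± 0.21 (SD, n = 3) in young APP and 18.17 ± 0.59 (SD, n = 4) in gated APP. It rose by 5.52 in APP and 6.03 in TAU, and exceeded the wild-type difference by 3.83 (adjusted p 4.57e-05) and 4.34 (adjusted p 6.15e-06). Older wild type, at 15.17, lay between the young and the gated samples. Hcar2, a receptor for nicotinic acid and ketone bodies, was chosen after its values were seen. It read 7.89, 9.45, 8.04 and 9.19 at 3 months and 10.99, 10.05, 9.61 and 9.30 at 12 months in wild type, a difference of 1.35 with overlapping samples and an adjusted p of 0.342. It rose by 5.60 in gated APP and 4.83 in gated TAU.

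Ildr2 rose in all 3 comparisons. Gated APP read 9.79 ± 0.24 (SD, n = 4) over 6.51 ± 0.23 (SD, n = 3) and gated TAU 8.61 ± 0.43 (SD, n = 4) over 6.53 ± 0.23 (SD, n = 4). The change in APP exceeded that of wild type by 1.82 (adjusted p 0.00140), and that in TAU by 0.63, which did not pass (adjusted p 0.312). Lsp1 rose by 3.17 in gated APP and by 1.2 in gated TAU. Its change in APP exceeded that of wild type by 1.89 (adjusted p 0.00130), and in TAU it differed by -0.09 (adjusted p 0.927). Set directly against older wild type, which both the wild-type and this contrast share, Ildr2 in gated TAU was 0.30 higher (adjusted p 0.475) and Lsp1 0.40 higher (adjusted p 0.327).

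Slco1a6 rose by 1.66 in gated APP and 1.75 in gated TAU, beside 1.96 in wild type, and the tests of the difference gave adjusted p-values of 0.858 and 0.890. Ica1 rose by 1.05 in gated TAU (adjusted p 0.0178) and differed by 0.91 in gated APP (adjusted p 0.0658). Its young transgenic samples read 7.0 and 7.44 on average, against 6.33 in young wild type. Tnfsf13b, the B cell survival factor BAFF, differed by 0.73 in wild type (adjusted p 0.338) and rose by 2.01 and 1.67. Rps26, a protein of the small ribosomal subunit, differed by 0.65 (adjusted p 0.324) and rose by 1.30 and 1.41.

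Of the 25 higher probe sets of this kind, 9 were for members of 1 zinc finger gene cluster on chromosome 2, among them Zfp971 and Gm6710. Their wild-type differences ran from 0.51 to 0.69. Genes of this cluster are known for closely similar sequences, so their values are uncertain. Whether their probe sets read the same transcripts was not tested.

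Of the 43 lower probe sets called the same way, the 8 named here had the smallest p. Flcn, folliculin, a regulator of the mTORC1 kinase and of lysosome genes, read 14.39, 14.35, 14.08 and 13.97 at 3 months and 13.68, 13.24, 13.55 and 12.55 at 12 months. The groups did not overlap, and replicate 4 was the lowest. The difference was -0.94 ± 0.23 (SE), with an adjusted p of 0.324, and -0.58 without replicates 2 and 4. Flcn fell by 1.97 in gated APP and by 1.53 in gated TAU. Tpst2, a tyrosine sulfotransferase of the Golgi, differed by -0.91 in wild type and fell by 1.93 and 2.10. Map3k3, a stress kinase, differed by -0.95 and fell by 1.56 and 1.88. Rbm26, an RNA-binding protein, differed by -0.94 and fell by 1.33 and 1.67. The wild-type differences of these 3 without replicates 2 and 4 were -0.64, -0.64 and -0.69. Wdr45b, Rybp, Fut8 and Kdm3b differed by -0.71, -0.75, -0.62 and -0.65 in wild type, and by -0.50, -0.49, -0.36 and -0.34 without the 2 samples. All 4 fell in both gated groups.

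Upk1b and Plin2 were called the opposite way in both strains. Upk1b, a tetraspanin of the uroplakin family, read 13.43, 13.75, 13.22 and 12.36 at 3 months and 14.79, 14, 14.71 and 13.90 at 12 months, with no overlap. The difference was 1.16 ± 0.33 (SE) with an adjusted p of 0.342, and it was 1.56 without replicates 2 and 4. In the gated cells Upk1b fell by 1.44 in APP and by 1.61 in TAU, and the changes differed from wild type by -2.60 (adjusted p 0.00204) and -2.77 (adjusted p 8.43e-04). Plin2, the coat protein of lipid droplets, read 10.25, 11.24, 10.24 and 11.07 at 3 months and 9.75, 9.17, 10.32 and 8.53 at 12 months. Replicate 3 overlapped the younger samples and replicate 4 was the lowest. The difference was -1.26 ± 0.38 (SE), or -0.67 without replicates 2 and 4. Plin2 rose by 3.63 in gated APP and by 3.23 in gated TAU, differing from wild type by 4.89 (adjusted p 4.99e-06) and 4.49 (adjusted p 1.14e-05).

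The gene lists below hold genes by their known roles. In bulk samples fewer cells of a type and less RNA per cell cannot be told apart. None of the lists had a called member in wild type, beside 5 calls over all autosomal probe sets. Over those, 3.78% were higher and 4.42% lower at a p under 0.05, and each list's count is read beside these shares. Whatever their p, 9371 of the 18726 were higher and 9332 lower. Members of a list are read on the same arrays, so their signs are not independent.

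No DAM gene was called in wild type. Of 35 measured, 2 were higher at a p under 0.05, Lpl, lipoprotein lipase, and Fabp5, a fatty acid binding protein, and 1 was lower, Ctsl, a lysosomal protease. The counts without replicates 2 and 4 were 1 and 0. The median difference was 0.08, and 0.14 without the 2. In the gated cells 35 of the 35 rose in APP and 34 in TAU, with medians of 2.82 and 2.49. Apoe read 9.85, 11.61, 11.53 and 11.83 at 3 months and 10.79, 9.92, 11.47 and 10.24 at 12 months, so the ages overlapped. Its difference was -0.60 ± 0.39 (SE) with an adjusted p of 0.646, and -0.08 without replicates 2 and 4. It rose by 6.08 in gated APP and 6.68 in gated TAU.

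Cst7 differed by 0.40 ± 0.30 (SE) in wild type, or 0.21 without replicates 2 and 4, and rose by 8.47 and 7.58 in the gated cells. Igf1 differed by -0.03 ± 0.26 (SE), or 0.07 without the 2, and rose by 7.73 and 4.20. Axl and Itgax were at background at both ages in wild type and read 14.15 and 11.89 in gated APP. Trem2, the lipid receptor that the DAM program needs, differed by -0.08 ± 0.22 (SE), or 0.10 without the 2, and rose by 1.92 and 1.11. For each of Apoe, Cst7, Igf1, Axl, Itgax and Trem2 the gated change exceeded that of wild type in both strains, with adjusted p-values of at most 0.0294. Lpl read 8.78, 8.33, 8.58 and 8.18 and then 8.65, 9.04, 8.97 and 8.97, a difference of 0.44 (adjusted p 0.517). Lpl rose by 1.0 and 0.92 in the gated cells, and its tests against wild type gave adjusted p-values of 0.324 and 0.347. Fabp5 was at background in wild type, and Ctsl differed by -0.41, or -0.24 without the 2 samples.

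Homeostatic genes had a median difference of -0.08 over 32 measured, and of 0.01 without replicates 2 and 4. At a p under 0.05, 3 were lower and none higher, while without the 2 samples none was lower and 1 higher. The 3 were Tmem119, Mertk, a receptor for dying cells, and Maf, a macrophage transcription factor. Tmem119 read 14.75, 14.97, 14.56 and 13.44 at 3 months and 14.15, 13.33, 13.95 and 12.89 at 12 months. The 2 lowest older samples were replicates 4 and 2, the ages overlapped, and the difference of -0.85 ± 0.38 (SE, adjusted p 0.539) was -0.38 without them. Mertk differed by -0.53 and -0.28, and Maf by -0.55 and -0.18, in the same order. P2ry12 differed by 0.09 ± 0.14 (SE), or 0.04 without the 2, and Cx3cr1 by 0.26 ± 0.31 (SE), or 0.53. In the gated cells 23 of the 32 fell in each strain. Tmem119 fell by 3.89 and 3.12, and P2ry12 by 1.16 and 1.42.

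**Figure D4:**
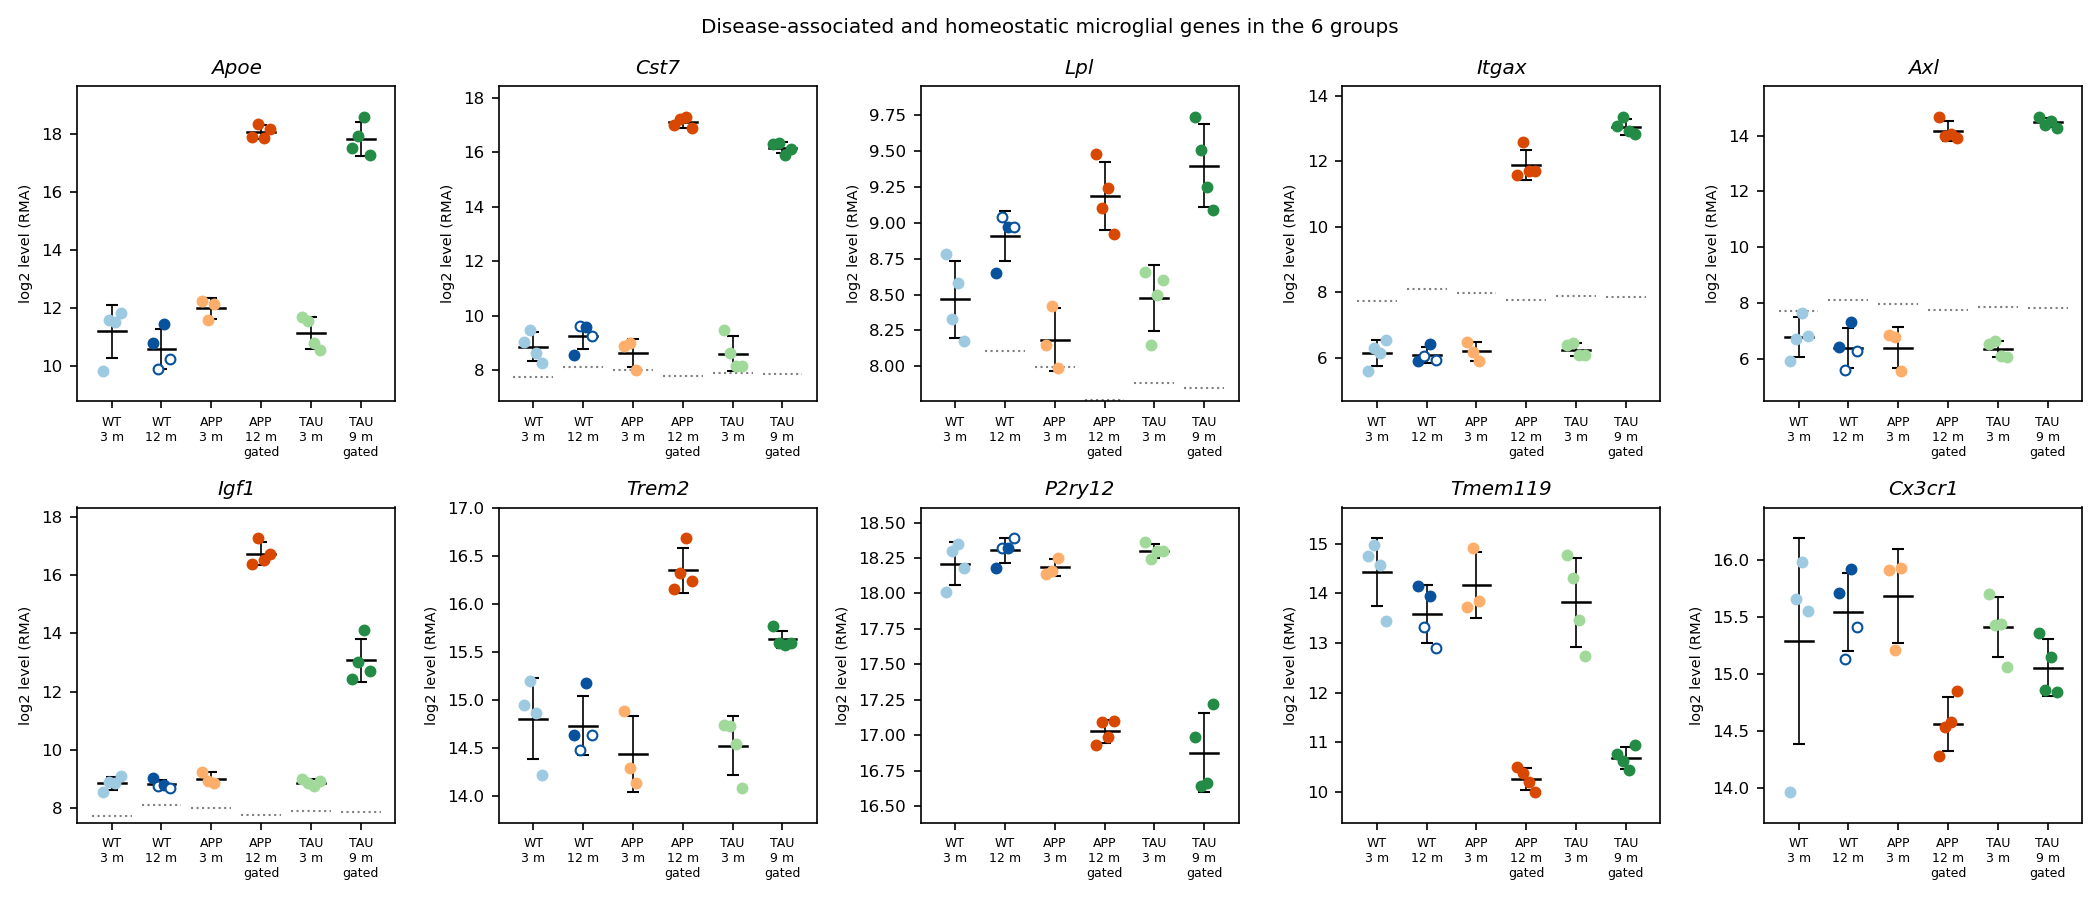
Log2 level of 10 disease-associated and homeostatic genes (vertical axis, scale differing by panel) in the 6 groups (horizontal axis). Points are samples, open points are replicates 2 and 4 of wild type at 12 months, bars the mean and SD, and dotted lines the background level where it lies in range; the 2 wild-type groups overlap in every panel, while gated samples lie apart for 8 genes and closer for Lpl and Cx3cr1.

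Cytokine and chemokine genes tied to interleukin 1 and NF-kB were higher in 31 of 40 probe sets, with a median of 0.16, and of 0.30 without replicates 2 and 4. At a p under 0.05, 2 were higher with all samples and 7 without the 2, and none was lower in either fit. Besides Il1b, Il1a, interleukin 1 alpha, read 17.19, 17.02, 17.16 and 17.43 and then 17.93, 17.57, 17.49 and 17.67. The ages did not overlap, and the difference was 0.47 ± 0.17 (SE), with an adjusted p of 0.464. It rose by 0.95 and 1.24 in the gated cells. Ccl12, a monocyte chemokine, differed by 0.65 (adjusted p 0.558). Tnf read 12.08 and 12.81, and Il6 7.89 and 8.71, and neither was among the 2 at a p under 0.05. At 3 months Il6 was close to the background of 7.73. Of the 40, 20 rose in gated APP and 24 in gated TAU, with medians of 0.68 and 1.07. The 42 sensing receptors had a median of -0.04 and, without the 2 samples, of 0.22, with 2 lower and none higher at a p under 0.05, against none lower and 3 higher without the 2. Il6ra, the interleukin 6 receptor, and Ltbr, a lymphotoxin receptor, were the lower ones, at -0.63 and -0.35, or -0.10 and -0.41 without the 2 samples. Lag3, an inhibitory receptor, differed by 0.54 and by 0.94 without the 2 samples (unadjusted p 0.00793).

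No interferon or antigen presentation gene was called in wild type. Of 45 type I interferon probe sets none had a p under 0.05, and the median was -0.04, or 0.07 without replicates 2 and 4. In the gated cells 30 rose in each strain. Sp100, a nuclear body protein, differed by 0.48 ± 0.23 (SE) in wild type and rose by 3.65 and 3.08. Ifi207, a nucleic acid sensor of the p200 family, differed by -0.57 ± 0.29 (SE) and rose by 4.58 and 4.24. The 16 MHC class I and peptide loading genes had a median of -0.10, and of 0.17 without the 2 samples. H2-D1 was among them, at -0.42 and 0.03. The 10 MHC class II genes had medians of 0.06 and 0.07, and H2-Oa differed by 0.27 and 0.90. The 17 complement probe sets had medians of 0.01 and 0.02, with 2 higher at a p under 0.05, Cd59a and C1s1, both at background, and none without the 2 samples.

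Lysosomal genes included 6 lower and no higher probe sets among 43 at a p under 0.05, with a median of -0.08. Without replicates 2 and 4 there were 2 lower and 2 higher, with a median of 0.09. Grn, progranulin, which lysosomes need for their hydrolases, read 18.77, 18.89, 19.07 and 18.86 at 3 months and 18.39, 18.32, 18.36 and 18.35 at 12 months. The 4 older samples lay close together and below the younger ones. The difference was -0.54 ± 0.15 (SE), 1.46-fold, with an adjusted p of 0.338, and it was -0.52 without the 2 samples. Grn in gated APP and TAU differed by -0.22 and -0.08 (adjusted p 0.464 and 0.802). Cln3, a lysosomal membrane protein, differed by -0.59 and by -0.30 without the 2. Of the 43, 18 rose in each strain.

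Lipid genes were lower in 23 of 27 probe sets, with a median of -0.22, or -0.06 without replicates 2 and 4. Of the 27, 14 were above background. At a p under 0.05 there were 3 lower and 2 higher, and none without the 2 samples. Plin2 and Lrp1, a receptor for lipoproteins, were among the lower, the latter at -0.82 ± 0.29 (SE), or -0.48 without the 2. Alzheimer risk genes had a median of -0.15 over 40, or 0.06 without the 2. Of the 40, 3 were lower and 1 higher at a p under 0.05, against 1 lower and none higher without the 2. Besides Grn the lower ones were Inpp5d, a phosphatase that limits immune receptor signals, at -0.50, or -0.26 without the 2, and Ptk2b, a kinase, at -0.66, or -0.24.

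Ribosomal protein genes were higher in 39 of 44 probe sets, with a median of 0.26, or 0.36 without replicates 2 and 4, and 2 of them had a p under 0.05, or 3 without the 2. Rps13 read 11.32 to 11.64 at 3 months and 11.87 to 12.64 at 12 months, a difference of 0.67 ± 0.25 (SE) with an adjusted p of 0.469. In the gated cells 43 of the 44 rose in APP and 39 in TAU, with medians of 1.2 and 1.0. The 66 respiratory chain probe sets had a median of 0.05, or 0.27 without the 2 samples. At a p under 0.05, 1 was higher and 2 lower, against 3 higher and none lower without the 2. Ndufa4 differed by 0.46, or 0.63, and Sdha, at background, by -0.80, or -0.47. Immediate early and heat shock genes were lower in 30 of 37 probe sets, with a median of -0.27, or -0.11 without the 2. Klf6, a zinc finger factor, read 17.16, 16.87, 16.54 and 17.08 and then 16.32, 16.50, 16.47 and 15.98, a difference of -0.60 ± 0.22 (SE) with an adjusted p of 0.464. Nr4a2, a nuclear receptor, differed by 0.92 while at background, and Maff by -0.52, or -0.15 without the 2. Of the 37, 2 were lower and 1 higher at a p under 0.05, against none and 1 without the 2. The 37 cell cycle probe sets had a median of 0.02 and the 13 senescence genes one of -0.08, with none at a p under 0.05 in either list. Cdkn1a, the p21 inhibitor, differed by -0.45 ± 0.38 (SE), or 0.01 without the 2 samples, and rose by 3.94 and 2.68 in the gated cells.

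**Figure D5:**
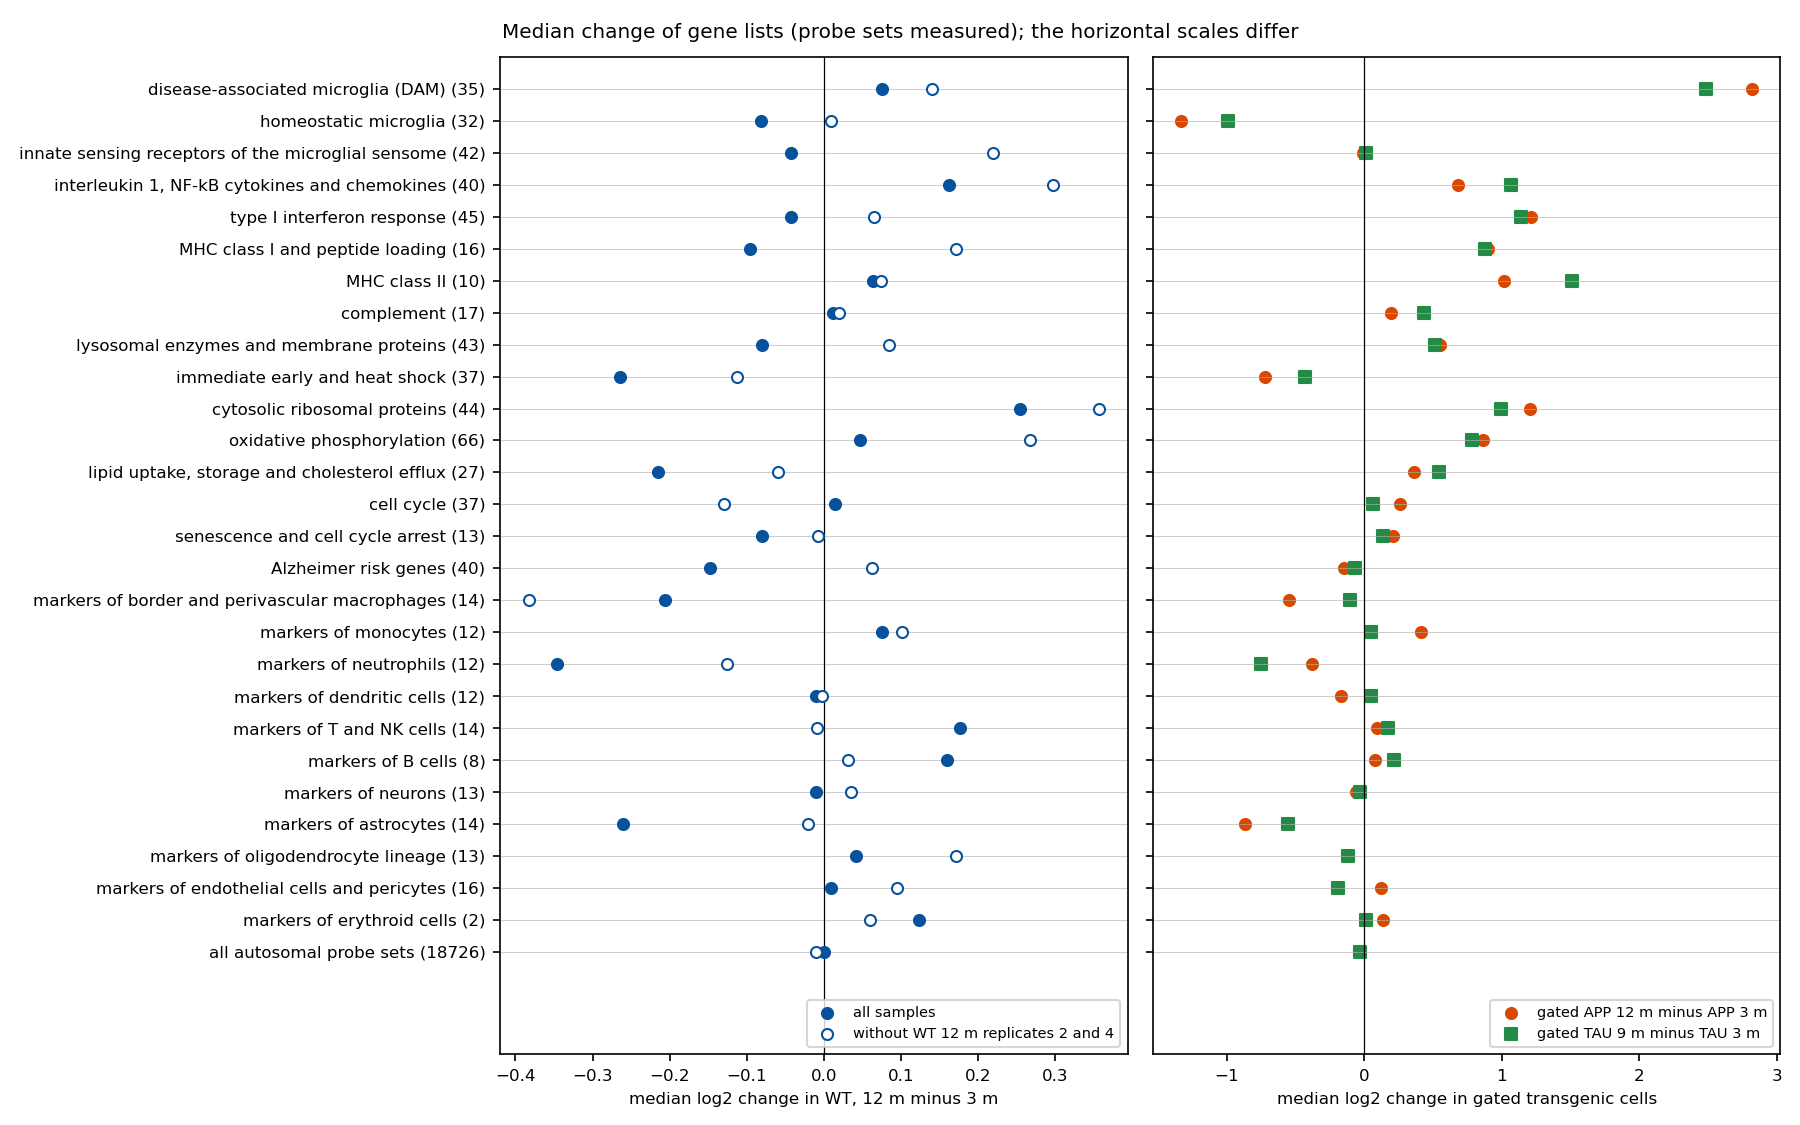
Median log2 difference of each gene list (rows, number of probe sets in brackets) in wild type between 12 and 3 months (left panel, all samples filled, without replicates 2 and 4 open) and in gated APP and TAU cells over young cells (right panel). The left axis spans less than 1 log2 unit and the right one over 4, and the DAM list lies at 0.08 in wild type against 2.82 and 2.49 in the gated cells.

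Markers of other cells were checked at the same time. The 14 T and NK cell markers averaged 5.38 to 5.69 per sample at 3 months and 5.51 to 6.19 at 12 months, with 1 of 14 above background. Of them 3 were higher at a p under 0.05, against none without replicates 2 and 4, and the median was 0.18, or -0.01. Replicates 2 and 4 were the highest, at 6.19 and 6.11. The NK cell receptor gene Klrb1c read 6.63 ± 0.76 and 8.03 ± 1.10 (SD, n = 4 each), with 9.12 and 8.54 in those 2 samples, and Ncr1 5.29 and 6.05, both genes at background at both ages. Their differences of 1.40 and 0.77 were 0.60 and 0.47 without the 2. The 12 monocyte markers averaged 6.43 to 6.67 and 6.61 to 7.05, with 2 of 12 above background and the same 2 samples highest. Treml4 was higher at a p under 0.05, against none without the 2, and Ly6c1 differed by 0.80 (adjusted p 0.575). The median of the monocyte list was 0.08, or 0.10 without the 2, with 8 members higher and 4 lower. The 14 border macrophage markers averaged 8.03 to 8.42 and 7.82 to 8.04, with 5 of 14 above background. Of the 14, 3 were lower at a p under 0.05, or 2 without replicates 2 and 4, and the median was -0.21, or -0.38. Mrc1, the mannose receptor, differed by -0.96 ± 0.37 (SE, adjusted p 0.489). The 12 neutrophil markers varied most among samples, from 5.99 to 7.85 at 3 months and from 6.06 to 7.27 at 12 months, led by the granule gene Ngp at 6.41 to 11.78.

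The 14 astrocyte markers averaged 7.48 to 8.57 and 7.37 to 8.08, with 5 of 14 above background. Slc1a3 and Aldoc differed by -0.86 and -0.96, or -0.61 and -0.14 without replicates 2 and 4, beside a list median of -0.26, or -0.02. Lists for B cells, dendritic cells, neurons, oligodendrocytes, endothelial cells and erythroid cells had medians of 0.16, -0.01, -0.01, 0.04, 0.01 and 0.12, with no member at a p under 0.05. Without the 2 samples they were 0.03, -0.003, 0.04, 0.17, 0.10 and 0.06, with 2 oligodendrocyte markers higher. The part of these cells in the age differences was not tested.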

How the data were processed

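The deposited values were log2 levels per probe set in 1 table of 23 arrays, made by the authors with RMA and the Transcriptome Analysis Console, per the submitters' processing notes. Versions, the genome build and the annotation are not given in the sources used here. Per the labels, 5 ng of total RNA was amplified per sample. Arrays give no read depth, and their number limits the precision.

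The values were used as deposited. Probe sets were named through the platform annotation and placed by RefSeq: 19572 of 22203 had 1 symbol, and 2631 had none and are not named. One limma 3.58.1 fit (R 4.3.3, eBayes without a trend) over 6 group means gave all comparisons, with Benjamini-Hochberg adjustment over 22203 probe sets and 0.05 as the threshold. The fit was tested on simulated data.

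Named genes were the called ones, the 10 largest differences per direction above background at a p under 0.01 without overlap, the 8 per direction with the smallest p called the same way in both gated strains and those called the opposite way, the 3 list members with the smallest p per list, the 5 per direction that did best with and without replicates 2 and 4, and 10 state genes. Text names some of these, and other list members with a p under 0.05 or as known examples. Members and lists were chosen with earlier results of these data known. Alternatives were single samples left out, both doubted samples left out, other scalings, weights, filters and covariates, the 8 wild-type samples alone, and a replicate block. Same-numbered samples were checked for shared deviations, with correlations of -0.21, -0.27, 0.23 and 0.10 in wild type. Samples with different numbers were not compared, so this cannot show whether the numbers pair samples. The main fit used no pairing.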

Additional observations from a re-analysis of the deposited data

Results flagged for a closer look

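In 24 of 430 sets of 4 samples looked at for the named genes, 1 sample lay far from the other 3 by Dixon's test, and chance gives about 1 in 20. In young wild type the sample that stood apart was Apoe at 9.85 in replicate 1 (lowest), Ly6c1 at 6.90 in replicate 2 (lowest), Nr4a2 at 5.85 in replicate 3 (lowest), Slc1a3 at 7.34 in replicate 4 (lowest) and Zfp687 at 9.24 in replicate 4 (lowest). In 12-month wild type the sample that stood apart was Zfp971 at 11.68 in replicate 3 (lowest). In gated APP the sample that stood apart was Cdkn1a at 14.12 in replicate 4 (lowest), Itgax at 12.58 in replicate 2 (highest), Klrb1c at 7.59 in replicate 3 (lowest) and Oser1 at 12.14 in replicate 1 (highest). In young TAU the sample that stood apart was Cspp1 at 9.40 in replicate 4 (lowest), Cyth2 at 10.51 in replicate 3 (highest), Ifi207 at 9.10 in replicate 2 (highest) and Zfp687 at 9.62 in replicate 2 (highest). In gated TAU the sample that stood apart was Elf3 at 5.09 in replicate 1 (highest), H2-D1 at 13.12 in replicate 4 (lowest), Ltbr at 9.02 in replicate 4 (lowest), Ndel1 at 12.37 in replicate 3 (highest), Odc1 at 13.75 in replicate 1 (highest), Plin2 at 11.75 in replicate 4 (lowest), Rps13 at 12.25 in replicate 4 (lowest), Rps26 at 11.96 in replicate 4 (lowest), Rybp at 11.47 in replicate 3 (highest) and Trem2 at 15.77 in replicate 1 (highest).

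The change of the gated strain minus that of wild type was called by limma for 25 named genes in APP and 22 in TAU. Called in both, with the log2 difference for APP and then TAU, were Apoe (6.68 and 7.28), Axl (8.11 and 8.50), Cdkn1a (4.39 and 3.12), Cst7 (8.08 and 7.18), Ctsl (1.90 and 1.17), Fabp5 (5.08 and 2.88), H2-D1 (2.87 and 3.09), Hcar2 (4.26 and 3.48), Ifi207 (5.15 and 4.81), Igf1 (7.75 and 4.22), Il1b (3.83 and 4.34), Itgax (5.76 and 6.86), Maff (1.64 and 1.46), P2ry12 (-1.25 and -1.51), Plin2 (4.88 and 4.49), Sp100 (3.18 and 2.60), Tmem119 (-3.04 and -2.27), Trem2 (1.99 and 1.19) and Upk1b (-2.60 and -2.77). Called for APP alone were Il6ra (-1.66), Ildr2 (1.82), Lrmp (1.51), Lsp1 (1.89), Mymk (-2.08) and Tnfsf13b (1.28), and for TAU alone 9030624G23Rik (-1.98), Ccl12 (1.89) and Lag3 (1.62); whether the 2 strains differ was not tested.

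Probe sets without a gene symbol were not part of the comparison, and 3 of them were called higher at 12 months in wild type. TC0200000886.mm.2 differed by 2.0 (adjusted p 0.0113), TC0800003213.mm.2 by 1.88 (adjusted p 0.0357) and TC0Y00000004.mm.2 by 0.84 (adjusted p 0.0356). Without replicates 2 and 4 the adjusted p-values from limma were 0.0657, 0.999 and 0.649, so none stayed called. TC0Y00000004.mm.2 was at background at both ages, and TC0200000886.mm.2 at 3 months. For TC0800003213.mm.2 the highest older samples were replicates 4 and 2, at 13.16 and 13.12.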

How the results depend on the processing

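The 5 calls in wild type became 1 without replicates 2 and 4, 1 after centring every array on its own median, 3 with quantile normalization, 9 with array weights and 3 with the 8 wild-type samples alone, and 0 to 46 with single samples left out. The 68 probe sets called the same way became 24 without the 2 samples, 169 with array weights, 207 for a wild-type p under 0.05 and 11 for one under 0.001, and 34 to 140 with single samples left out. The counts for the difference between the changes, 729 in APP and 701 in TAU, became 1319 and 1196 with array weights and 397 and 438 with the Y-linked covariate. Without replicates 2 and 4 the TAU count was 405. With single samples left out they ran from 517 to 982 and from 463 to 1073. With the replicate block, which treats equal numbers as a shared factor, the 4 counts were 6, 92, 999 and 880. Over 86 named genes, 1470 of 1542 values stayed on their side of the threshold with their sign, 39 lost and 19 gained a call, and 14 in 8 genes changed sign. None of those 8 was called. Without replicates 2 and 4 these were Axl 0.085, Cdkn1a 0.007, H2-D1 0.027, Igf1 0.07, Itgax 0.017 and Trem2 0.10, and with the Y-linked covariate Itgax 0.007. With single samples left out Cx3cr1 ran from -0.188 to 0.486, H2-Oa from -0.078 to 0.618, Igf1 from -0.129 to 0.061, Itgax from -0.248 to 0.065 and Trem2 from -0.272 to 0.055. The cause of these shifts was not tested. With 4 arrays an age, and 2 older arrays without the doubted ones, small differences were not detectable, and most probe sets lay under background.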
